A study of Mus musculus with 12 samples.

Results

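The genes described here encode the nuclear-coded subunits of respiratory complexes II, III, IV and V. They are all genes whose symbol is Sdha to Sdhd, begins with Uqcr, is Cyc1, begins with Cox4 to Cox8, or begins with Atp5, apart from Cox8b and Cox7a1. Genes were chosen by symbol, and a gene with several probe sets is given by its brightest set on average. The choice gave 46 of the 22180 genes measured by a probe set with 1 gene symbol. They comprise 4 genes of complex II, 8 of complex III, 15 of complex IV, 17 of complex V (ATP synthase) and 2 pseudogenes, Atp5c1-ps and Uqcrh-ps1. All 46 matched an entry in the RefSeq gene table, and none was left out for low values.

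Respiratory complexes sit in the inner mitochondrial membrane. Complex II passes electrons from succinate to ubiquinone, complex III passes them on to cytochrome c, complex IV hands them to oxygen, and complex V uses the resulting proton gradient to make ATP. Brown and beige adipocytes are rich in mitochondria, and there uncoupling protein 1 lets protons return without making ATP. Several complex IV subunits exist as ubiquitous and tissue-restricted isoforms from separate genes.

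The data are Affymetrix expression arrays of mouse cells grown from precursors of inguinal fat, a subcutaneous depot, and differentiated to adipocytes. All 12 arrays carry the genotype R26Cre/Prdm16floxEx9, that is Cre recombinase placed at the Rosa26 locus with loxP sites around exon 9 of Prdm16, which encodes a regulator of brown and beige fat genes. During growth, the precursors received 1 uM 4-hydroxy-tamoxifen (4OHT), a ligand that activates inducible Cre, or ethanol (EtOH), for 3 days. All cells were differentiated with isobutylmethylxanthine, indomethacin, dexamethasone, insulin and T3, and 2 of the 4 groups also received 1 uM rosiglitazone, a drug that activates PPARgamma. Named EtOH, 4OHT, EtOH_Rosi and 4OHT_Rosi, the groups hold 3 arrays each, numbered 1 to 3. The age and number of animals and the time of harvest were not among the labels used here. None of the 12 arrays is of cells given 4OHT without the floxed allele, so the ligand, active Cre and loss of the exon cannot be told apart. The labels do not say that the 3 arrays of a group are separate cultures, and p-values then measure only spread among the arrays, some or all of it possibly technical.

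The values are log2 probe set values, and every difference below is a difference in log2 units between group means with its SE from limma. Array medians ran from 5.97 to 6.05, and the number of arrays per group limits the precision. Prdm16 read 7.20, 7.46 and 7.44 in EtOH_Rosi and 6.63, 6.70 and 6.63 in 4OHT_Rosi (−0.71 ± 0.10 SE, adjusted p = 0.00065), against −0.17 ± 0.10 (adjusted p = 0.455) without rosiglitazone. Whether its probes lie in the floxed exon was not examined. The array 4OHT_Rosi 3 stood apart from its group on the third principal component of all genes (16.03, the others of its group −1.40 and 0.73). On the first component, where arrays with rosiglitazone lay above 0 and those without below, it read 14.93, against 25.42 and 21.86. Without it, rosiglitazone raised 31 subunit genes after 4OHT, the same number as with it, with Atp5j lost and Uqcrq gained. The number after ethanol stayed at 39, a comparison that this array enters only through the estimate of spread. In bulk RNA, fewer cells of a type and less RNA per cell cannot be told apart.

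Promoter sequences are shown for the largest rosiglitazone difference in complexes II, III and V (Sdhd, Uqcrfs1 and Atp5o), for Uqcrc1, a core protein of complex III with a small p for the interaction below, and for Cox7a2l, which fell with 4OHT. RefSeq (build GRCm38.p6) gave a window of 250 bases before to 50 after the start for 33 of the 46 genes. Each is printed 5′ to 3′ on the gene's strand, in lower case, with matches to any of 4 motifs in capitals.
Sdhd, chr9:50603800-50604099, minus strand: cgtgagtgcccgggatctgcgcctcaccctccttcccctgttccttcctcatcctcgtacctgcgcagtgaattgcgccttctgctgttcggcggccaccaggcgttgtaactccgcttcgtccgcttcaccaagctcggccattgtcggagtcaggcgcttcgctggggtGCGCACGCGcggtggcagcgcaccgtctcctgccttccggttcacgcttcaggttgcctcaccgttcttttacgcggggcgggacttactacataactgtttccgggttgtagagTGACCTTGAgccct
Uqcrfs1, chr13:30545267-30545566, minus strand: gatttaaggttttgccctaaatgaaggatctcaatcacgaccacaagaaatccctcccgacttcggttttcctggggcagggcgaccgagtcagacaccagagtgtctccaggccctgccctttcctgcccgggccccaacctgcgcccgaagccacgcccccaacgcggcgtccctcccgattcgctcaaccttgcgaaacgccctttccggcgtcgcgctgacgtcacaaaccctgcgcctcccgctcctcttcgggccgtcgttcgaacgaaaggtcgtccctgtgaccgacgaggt
Uqcrc1, chr9:108936398-108936697, plus strand: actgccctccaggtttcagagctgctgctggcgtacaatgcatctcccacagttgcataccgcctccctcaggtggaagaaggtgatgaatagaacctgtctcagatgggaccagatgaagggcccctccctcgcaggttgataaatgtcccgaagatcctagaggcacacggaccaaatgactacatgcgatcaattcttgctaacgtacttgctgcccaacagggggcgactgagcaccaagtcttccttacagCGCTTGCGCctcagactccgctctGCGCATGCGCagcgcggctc
Cox7a2l, chr17:83514284-83514583, minus strand: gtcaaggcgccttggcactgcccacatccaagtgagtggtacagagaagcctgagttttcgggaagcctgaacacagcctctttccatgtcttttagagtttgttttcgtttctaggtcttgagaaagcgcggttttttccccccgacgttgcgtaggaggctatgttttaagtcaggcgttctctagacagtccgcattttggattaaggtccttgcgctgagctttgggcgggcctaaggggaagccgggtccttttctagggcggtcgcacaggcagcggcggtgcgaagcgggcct
Atp5o, chr16:91931581-91931880, minus strand: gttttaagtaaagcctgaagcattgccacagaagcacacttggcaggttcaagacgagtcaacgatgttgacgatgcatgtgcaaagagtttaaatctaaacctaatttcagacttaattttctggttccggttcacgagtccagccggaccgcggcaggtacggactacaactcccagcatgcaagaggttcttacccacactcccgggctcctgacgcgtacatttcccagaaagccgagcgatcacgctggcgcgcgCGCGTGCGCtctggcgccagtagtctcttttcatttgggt

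The motifs were GCGCANGCG (the core of the NRF1 element), TCAAGGTCA (the estrogen-related receptor element), CCGGAAGT (an ETS element that GABPA can bind) and AAGATGGC (the YY1 element), each searched on both strands. Adjoining capitals can be overlapping matches. In Sdhd the capitals are an estrogen-related receptor element and an NRF1 core, one on each strand. Uqcrc1 holds 3 matches to the NRF1 core and Atp5o holds 1, all after the start site. The windows of Uqcrfs1 and Cox7a2l held none of these letters. Over the 36 windows of the 33 genes, 12 (33.3%) had the NRF1 core, against 6.25% of all 32851 windows in the table. The estrogen-related receptor element was in 5.56% (Atp5g3 and Sdhd) against 0.423%, the ETS element in 11.1% against 3.89%, and the YY1 element in 8.33% against 2.75%. The windows had a median GC content of 56.8%, against 52.7% for all. These are matches of letters, and no binding was measured.

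The first question was how rosiglitazone changed the subunit genes in cells given ethanol. After ethanol, 39 of the 46 genes were higher with rosiglitazone and none was lower at an adjusted p under 0.05 (limma, Benjamini-Hochberg over all genes), while 30.7% of all genes were called, 14.4% higher and 16.3% lower. The median difference over the 46 was 0.50, against 0.01 over all genes tested. In 40 of the 46, all 3 arrays with rosiglitazone lay above all 3 without, as in 19.9% of all genes, and none had all 3 below, as in 20.9% of all genes. The median was 0.68 in complex II, 0.62 in III, 0.48 in IV and 0.36 in V. By mean level, it was 0.09 for the 6 genes below 6.60, the median of the genes tested, and none of these is in complex II or III. It was 0.59 for 13 genes from there to 10, 0.67 for 15 from 10 to 12, and 0.38 for 12 above 12. Whether the order of the complexes follows signal level was not tested.

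**Figure D1:**
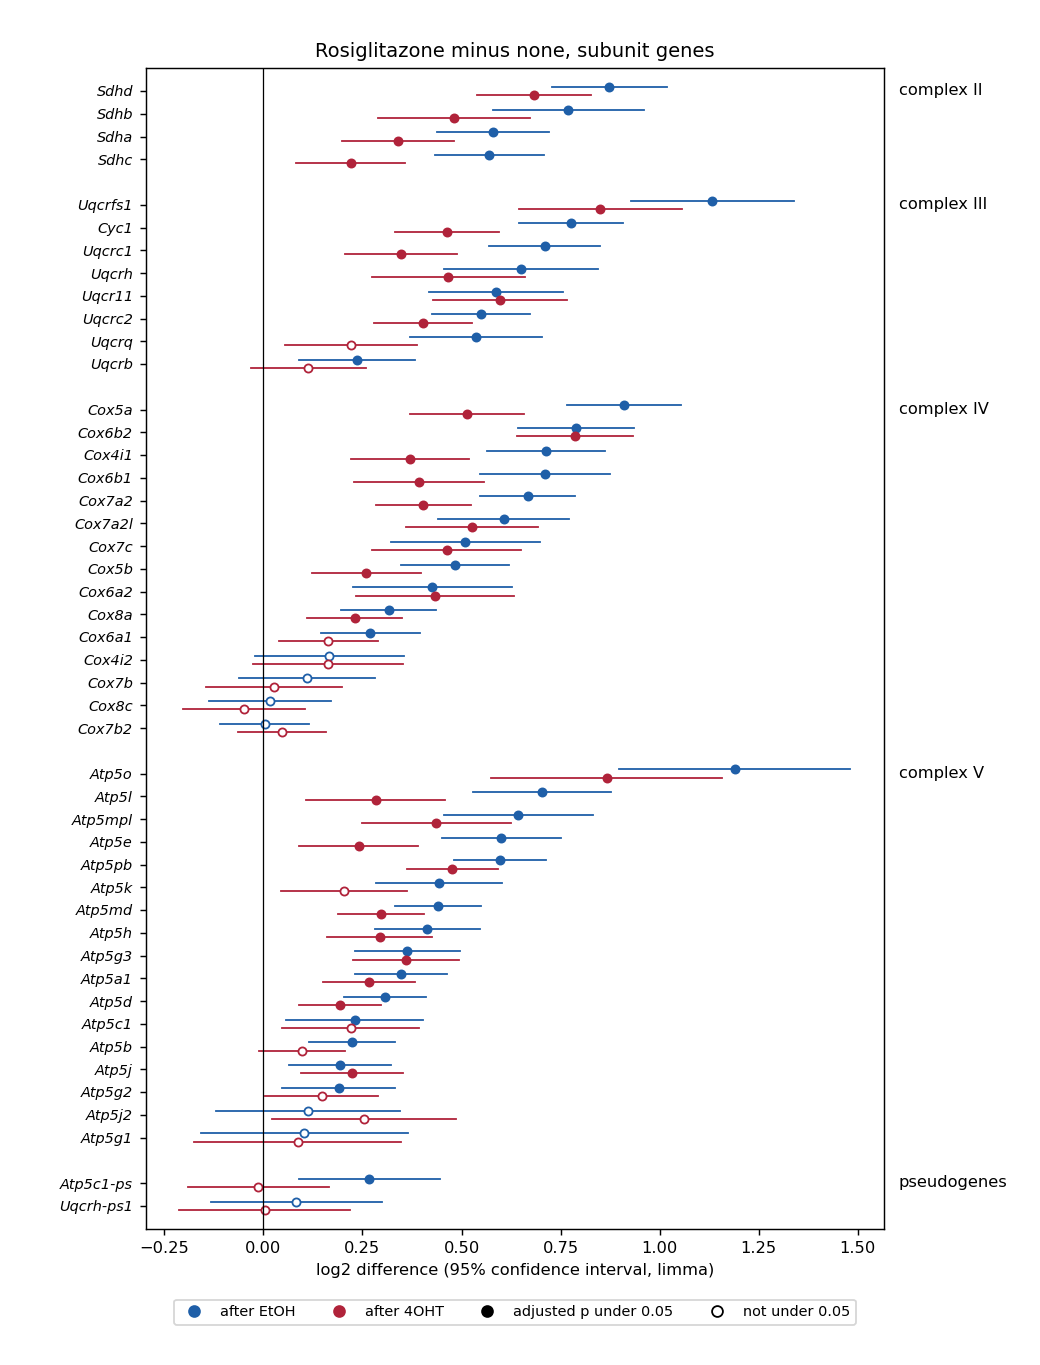
Difference in log2 value between rosiglitazone and none (horizontal axis, with 95% confidence interval from limma) for each of the 46 genes, by complex, after EtOH (blue) and after 4OHT (red); filled points have an adjusted p under 0.05. After EtOH 39 points are filled and after 4OHT 31, all above 0, and most red points lie to the left of the blue.

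All 4 genes of complex II rose. Sdhd, which with Sdhc anchors the enzyme in the membrane, read 10.69, 10.61 and 10.62 in EtOH and 11.36, 11.56 and 11.62 in EtOH_Rosi. The arrays did not overlap, and Sdhd rose by 0.87 ± 0.07 (1.83-fold, adjusted p = 5.3e-07). Sdhb, the iron-sulfur subunit, rose by 0.77 ± 0.09, and Sdha, the flavoprotein that oxidises succinate, by 0.58 ± 0.07. Sdhc had the smallest difference of the complex, from 10.59, 10.55 and 10.44 to 11.04, 11.04 and 11.21, a rise of 0.57 ± 0.06 (adjusted p = 1.18e-05). The members of this small complex lay close together.

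All 8 genes of complex III rose, over a wider range. Uqcrfs1, the Rieske iron-sulfur protein and one of the electron-carrying subunits, read 8.79, 8.48 and 8.51 in EtOH and 9.56, 9.84 and 9.78 in EtOH_Rosi. Every rosiglitazone array was above every ethanol array, and the rise was 1.13 ± 0.10 (2.19-fold, adjusted p = 1.12e-06). Cyc1, the cytochrome c1 that passes electrons to cytochrome c, went from 11.66, 11.51 and 11.53 to 12.33, 12.31 and 12.39, a rise of 0.78 ± 0.06 (1.71-fold, adjusted p = 6.57e-07). The core proteins rose by 0.71 ± 0.07 (Uqcrc1) and 0.55 ± 0.06 (Uqcrc2), and Uqcrh, the hinge protein, by 0.65. The small subunits Uqcr11 and Uqcrq rose by 0.59 and 0.54. Uqcrb, a further small subunit, had the smallest difference, 0.24 ± 0.07 (adjusted p = 0.0155), from 12.54, 12.56 and 12.49 to 12.86, 12.74 and 12.70.

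In complex IV, 11 of 15 genes rose and 4 were not called. Cox5a, a nuclear-coded subunit on the matrix side, read 9.76, 9.70 and 9.68 in EtOH and 10.61, 10.66 and 10.60 in EtOH_Rosi. The arrays were tightly grouped and far apart, and the rise was 0.91 ± 0.07 (1.88-fold, adjusted p = 3.79e-07). Cox4i1, Cox6b1, Cox7a2 and Cox7a2l rose by 0.71, 0.71, 0.67 and 0.61, Cox7c and Cox5b by 0.51 and 0.48, Cox8a by 0.32 ± 0.06 and Cox6a1 by 0.27 ± 0.06. Cox7a2l encodes a Cox7a-related protein that takes part in joining complexes III and IV in supercomplexes.

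In complex V, 15 of 17 genes rose. Atp5o, the subunit that ties the catalytic head to the peripheral stalk (also called OSCP), read 7.28, 7.0 and 6.83 in EtOH and 8.16, 8.20 and 8.32 in EtOH_Rosi. It was the largest difference among the 46, 1.19 ± 0.14 (2.28-fold, adjusted p = 1.34e-05), with wide spread among the ethanol arrays. Atp5l, a membrane subunit at the dimer interface, rose by 0.70 ± 0.08, and Atp5pb, Atp5h and Atp5j of the peripheral stalk rose by 0.60, 0.41 and 0.19.

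The 5 subunits of the catalytic F1 head all rose, with a median of 0.31 against 0.43 for the other 12 genes of complex V. Atp5b, the catalytic beta subunit, read 13.22, 13.23 and 13.19 in EtOH and 13.44, 13.43 and 13.44 in EtOH_Rosi, a rise of 0.22 ± 0.05 (1.17-fold, adjusted p = 0.00336). That is a small but separate shift at the top of the array's range, where values can be compressed. Atp5a1 (alpha), Atp5d (delta), Atp5c1 (gamma) and Atp5e (epsilon) rose by 0.35, 0.31, 0.23 and 0.60. Of the 3 genes for the c subunit of the membrane rotor, Atp5g3 rose by 0.36 and Atp5g2 by 0.19, while Atp5g1 differed by 0.10 ± 0.12 (adjusted p = 0.599). Atp5g1 read 6.40, 6.40 and 6.38 against 6.38, 6.40 and 6.71, overlapping groups.

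**Figure D2:**
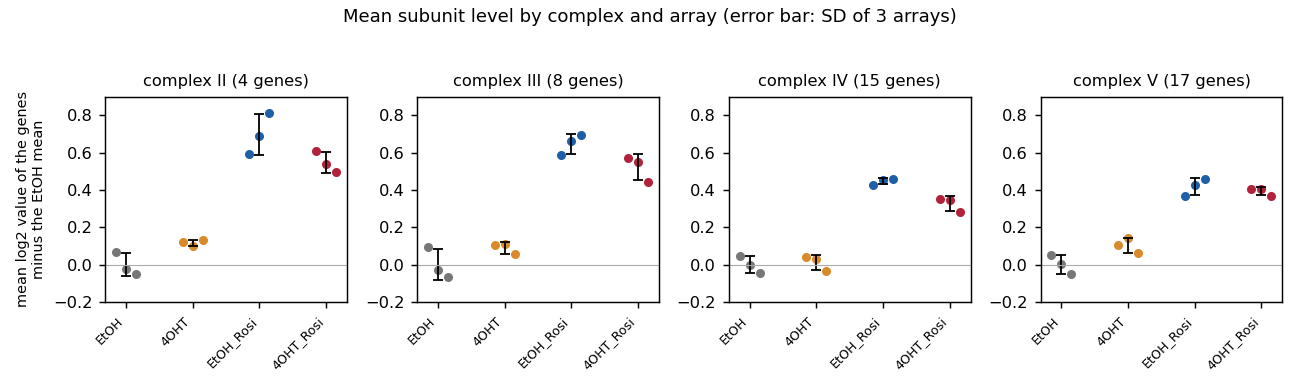
Mean log2 value over the genes of each complex, minus the mean of the 3 EtOH arrays (vertical axis, log2 units), for each array, with the SD of 3 arrays as error bar. In every complex the rosiglitazone arrays lie above all arrays without it, and the means with rosiglitazone are 0.70 after EtOH and 0.55 after 4OHT in complex II, and 0.42 and 0.39 in complex V.

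Genes not called in either rosiglitazone comparison were Atp5g1, Atp5j2, Cox4i2, Cox7b, Cox7b2, Cox8c and Uqcrh-ps1. Of these, Atp5g1, Atp5j2, Cox7b2, Cox8c and Uqcrh-ps1, together with Atp5c1-ps, had a mean below 6.60, the median of the genes tested, where fold changes on arrays are compressed. Cox7b is different, since its brightest probe set read high in every group. It gave 12.14, 12.27 and 12.41 in EtOH and 12.48, 12.34 and 12.33 in EtOH_Rosi, groups that overlapped (0.11 ± 0.08, adjusted p = 0.355). A second, dimmer probe set of Cox7b differed by 0.55 ± 0.21 (adjusted p = 0.0675) after ethanol and 0.69 ± 0.21 (adjusted p = 0.0291) after 4OHT, so the probe sets of this gene disagree.

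The other 5 genes with a second probe set had the same direction with both in the rosiglitazone comparison after ethanol. The differences were 0.48 and 0.94 for Cox5b, 0.31 and 0.60 for Atp5d, 0.41 and 0.51 for Atp5h, 0.19 and 0.19 for Atp5g2, and 0.60 and 0.24 for Atp5e (adjusted p = 0.0743 for the last value). In each pair the brighter set is named first.

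After 4OHT, rosiglitazone raised 31 of the 46 genes and lowered none, where 23.7% of all genes were called, 11.6% higher and 12.1% lower. The median difference was 0.29, against 0.00 over all genes. In 37 genes the arrays with and without rosiglitazone did not overlap, all higher, as in 18.1% of all genes, and in none were they all lower, as in 18% of all genes. All 31 were also called after ethanol, where they were 79.5% of the 39, and the 2 comparisons share no arrays. The genes called only after ethanol were Atp5b, Atp5c1, Atp5c1-ps, Atp5g2, Atp5k, Cox6a1, Uqcrb and Uqcrq, and for none of them was the difference between the 2 effects called. Over 20 alternative settings the count ran from 35 to 40 after ethanol and from 29 to 35 after 4OHT.

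The largest rises after 4OHT were in Atp5o and Uqcrfs1 again. Atp5o went from 7.38, 7.64 and 7.06 in 4OHT to 8.27, 8.09 and 8.32 in 4OHT_Rosi (0.87 ± 0.14, adjusted p = 0.000318). Uqcrfs1 went from 8.78, 8.77 and 8.86 to 9.75, 9.69 and 9.52 (0.85 ± 0.10, adjusted p = 2.05e-05). Neither gene's groups overlapped. Cox6b2 rose by 0.79 ± 0.07, Sdhd by 0.68 ± 0.07, Uqcr11 by 0.60 ± 0.08 and Cox7a2l by 0.53 ± 0.08.

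The difference between the 2 rosiglitazone effects, which is also the difference between the 2 effects of 4OHT, was tested as an interaction. No subunit gene was called (limma, adjusted p), where 1.01% of all genes were, while 15 of the 46 (32.6%) had an unadjusted p under 0.05, as did 14% of all genes. The interaction was below 0, a smaller rosiglitazone difference after 4OHT, in 41 of the 46 (89.1%), with a median of −0.13. Over all genes it was below 0 in 51.1%, with a median of 0.00. For genes that rosiglitazone lowers, that sign means a larger fall, so 51.1% is not a share of weaker responses. The share among genes raised by rosiglitazone was not counted. Of all genes, 14.4% were called higher with rosiglitazone after ethanol and 11.6% after 4OHT. Uqcr11, Cox6a2, Atp5j, Cox7b2 and Atp5j2 were the exceptions, with interactions of 0.01, 0.01, 0.03, 0.04 and 0.14. Without 4OHT_Rosi 3 the rosiglitazone difference was smaller after 4OHT in 39 of the 46.

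Cox5a and Uqcrc1 had the smallest interaction p. Cox5a read 9.95, 10.06 and 9.95 in 4OHT and 10.62, 10.51 and 10.37 in 4OHT_Rosi, beside the EtOH and EtOH_Rosi values above. Its rosiglitazone difference was 0.51 ± 0.07 after 4OHT and 0.91 after ethanol, an interaction of −0.40 ± 0.09 (adjusted p = 0.0718). Uqcrc1 read 11.87, 11.77 and 11.82 in EtOH, 12.02, 11.98 and 11.93 in 4OHT, 12.46, 12.56 and 12.57 in EtOH_Rosi, and 12.36, 12.41 and 12.20 in 4OHT_Rosi. The 4 groups did not overlap, in the order EtOH, 4OHT, 4OHT_Rosi, EtOH_Rosi, and the interaction was −0.36 ± 0.09 (adjusted p = 0.0903). With an intensity trend and robust eBayes the interaction was called in 6 genes, Cox4i1, Cox5a, Cox7a2, Cyc1, Sdhc and Uqcrc1, all negative, and with array weights in Cox5a and Uqcrc1.

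**Figure D3:**
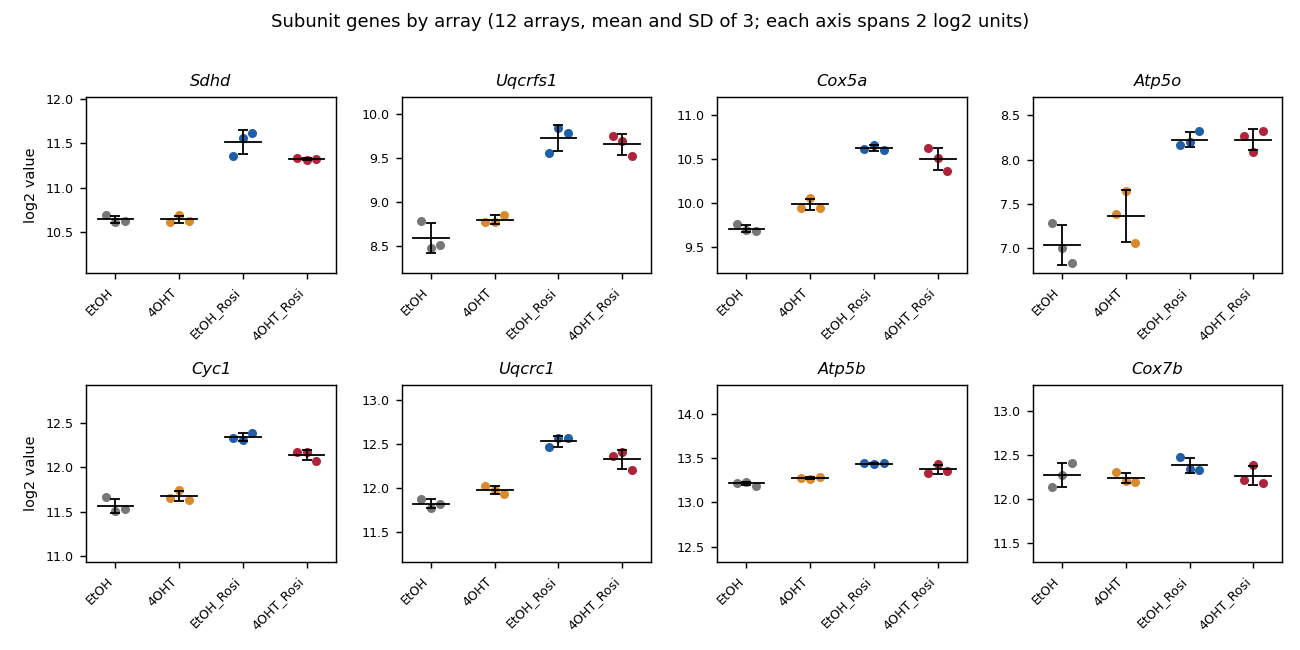
Log2 value (vertical axis, each spanning 2 log2 units) of 8 subunit genes on each of the 12 arrays, with mean and SD of 3 per group. Rosiglitazone arrays lie above the others in 7 of the panels, and in Cox7b the groups overlap.

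The 4OHT comparisons ask how cells given the ligand differed from cells given ethanol. Without rosiglitazone, 2 of the 46 genes were higher after 4OHT and 1 lower, beside 3.91% of all genes called, 2.13% higher and 1.79% lower. The share of subunit genes called higher was 4.35%. With rosiglitazone, none was higher and 4 were lower, beside 8.03% of all genes called, 4.65% higher and 3.38% lower. At an unadjusted p under 0.05 there were 14 genes (30.4%) without rosiglitazone, beside 16.0% of all genes, and 12 (26.1%) with it, beside 20.7%, in either direction.

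The medians had opposite signs, 0.08 without rosiglitazone (36 of 46 above 0) and −0.08 with it (7 of 46 at or above 0, Atp5o at 0.00). Over all genes they were 0.00 and −0.01. Without 4OHT_Rosi 3, 10 of 46 were above 0 with rosiglitazone. Genes on 1 array are not independent, so these counts are description only. The mean of the 46 per array ran from 9.63 to 9.74 in EtOH and 9.72 to 9.77 in 4OHT, overlapping. It ran from 10.12 to 10.21 in EtOH_Rosi and 10.03 to 10.11 in 4OHT_Rosi, just apart. By median per array, the groups without rosiglitazone were apart and those with it overlapped. In 29 genes (63%) the 4OHT difference was positive without and negative with rosiglitazone, against 23.1% of all genes, and in 29 without 4OHT_Rosi 3. For Atp5d, Cox4i1, Cox7a2, Sdhc and Uqcrc1 (10.9%), all 4OHT arrays lay above all EtOH arrays without rosiglitazone and below them with it. The same held in 0.676% of all genes. The second, dimmer probe set of Atp5d differed by −0.20 ± 0.17 (adjusted p = 0.673) without rosiglitazone, where the brighter set differed by 0.05 ± 0.05 (adjusted p = 0.689). All these differences were small. In Cox4i1, for example, EtOH read 11.47, 11.35 and 11.26 and 4OHT read 11.51, 11.58 and 11.48, a difference of 0.16 ± 0.07 (adjusted p = 0.257). EtOH_Rosi read 11.96, 12.14 and 12.12 and 4OHT_Rosi read 11.92, 11.92 and 11.84, a difference of −0.18 ± 0.07 (adjusted p = 0.148).

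The called rises without rosiglitazone were those of Cox5a and Atp5l. Cox5a, with the values above, rose by 0.27 ± 0.07 (1.21-fold, adjusted p = 0.0379), and its groups did not overlap. Atp5l read 9.56, 9.80 and 9.67 in EtOH and 9.92, 10.03 and 10.02 in 4OHT, a rise of 0.31 ± 0.08 (1.24-fold, adjusted p = 0.0494). With rosiglitazone neither was called, at −0.12 ± 0.07 (adjusted p = 0.332) for Cox5a and −0.11 ± 0.08 (adjusted p = 0.523) for Atp5l. Both calls were lost with quantile normalization, the Cox5a call without any 1 of the 6 arrays compared, and the Atp5l call without any of them but EtOH 2. Of the arrays not compared, leaving out EtOH_Rosi 2 or 4OHT_Rosi 2 ended both calls, and EtOH_Rosi 1, EtOH_Rosi 3 or 4OHT_Rosi 1 that of Atp5l.

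**Figure D4:**
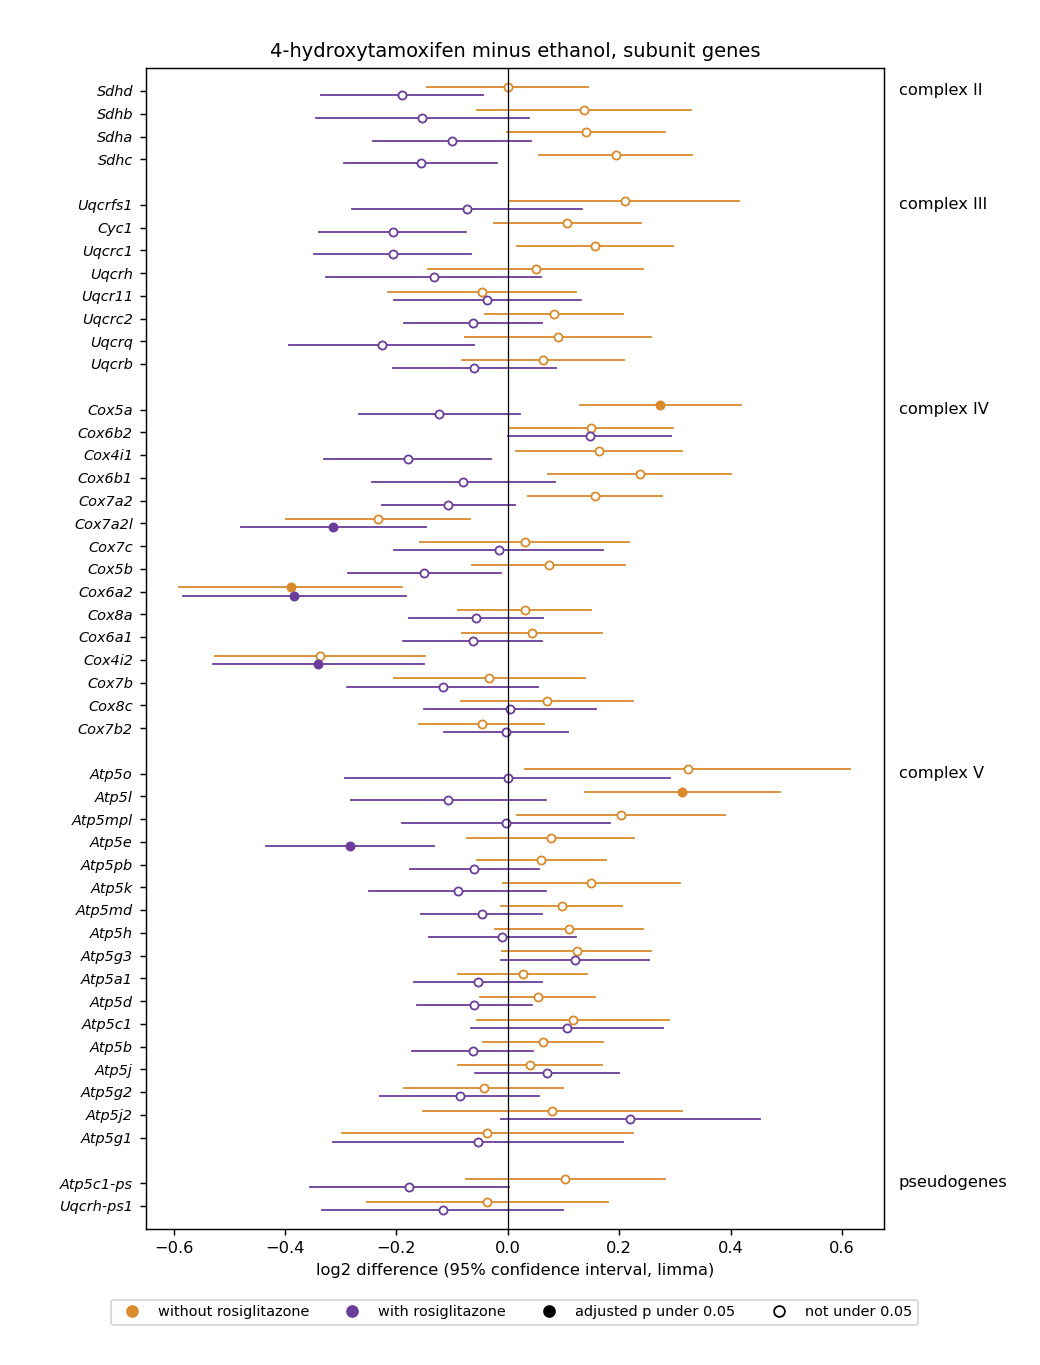
Difference in log2 value between 4OHT and EtOH (horizontal axis, with 95% confidence interval from limma) for each of the 46 genes, by complex, without rosiglitazone (orange) and with it (purple); filled points have an adjusted p under 0.05. Most orange points lie above 0 and most purple points below, with 3 orange and 4 purple points filled.

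Cox6a2, the heart and muscle isoform of subunit VIa, was lower after 4OHT in both settings. It read 7.33, 7.19 and 7.15 in EtOH and 6.95, 6.81 and 6.74 in 4OHT, and fell by 0.39 ± 0.09 (1.31-fold, adjusted p = 0.0324). With rosiglitazone it read 7.62, 7.66 and 7.67 in EtOH_Rosi and 7.12, 7.18 and 7.50 in 4OHT_Rosi, and fell by 0.38 ± 0.09 (1.30-fold, adjusted p = 0.0221). The groups were apart in both, with 4OHT_Rosi 3 nearest to the EtOH_Rosi arrays, and the interaction was 0.01 ± 0.13. Its ubiquitous counterpart Cox6a1 differed by 0.04 ± 0.06 and −0.06 ± 0.06 (adjusted p = 0.813 and 0.607). The Cox6a2 call without rosiglitazone was lost without any 1 of the arrays compared but 4OHT 1, and with median centring. The defining skeletal muscle genes Myog, Myod1, Ckm, Acta1, Myh4, Tnnt3 and Mylpf had none of 7 called in either 4OHT or rosiglitazone comparison. The mean over this list ran from 5.98 to 6.19 over the 12 arrays. That is below 6.60, the median of the genes tested, so differences there are hard to see. With 4OHT in rosiglitazone, Myog differed by 0.28 ± 0.08 (adjusted p = 0.0535, limma) and its arrays did not overlap.

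Cox4i2, the isoform of subunit IV known from lung and from low oxygen, lay lower after 4OHT in both settings as well. It read 8.75, 8.65 and 8.57 in EtOH and 8.47, 8.35 and 8.14 in 4OHT (−0.34 ± 0.09, adjusted p = 0.0504). In EtOH_Rosi it read 8.83, 8.88 and 8.76 and in 4OHT_Rosi 8.57, 8.53 and 8.35, and fell by 0.34 ± 0.09 (1.27-fold, adjusted p = 0.0301). Neither comparison had overlapping arrays, though the first just missed the threshold, and rosiglitazone gave no called difference (0.17 ± 0.09 after ethanol, adjusted p = 0.187).

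The other genes that fell with 4OHT in rosiglitazone were Cox7a2l and Atp5e. Cox7a2l read 8.92, 8.83 and 8.93 in EtOH_Rosi and 8.68, 8.62 and 8.44 in 4OHT_Rosi, and fell by 0.31 ± 0.08 (1.24-fold, adjusted p = 0.0235). Without rosiglitazone its arrays were also apart, 8.40, 8.29 and 8.17 against 8.07, 7.98 and 8.11, but the difference of −0.23 ± 0.08 was not called (adjusted p = 0.127). Atp5e, the epsilon subunit of the F1 head, read 9.75, 9.93 and 9.87 in EtOH_Rosi and 9.63, 9.53 and 9.54 in 4OHT_Rosi, and fell by 0.28 ± 0.07 (1.22-fold, adjusted p = 0.0237). Its second probe set differed by −0.11 ± 0.09 (adjusted p = 0.576), and without rosiglitazone Atp5e differed by 0.08 ± 0.07 (adjusted p = 0.685). All 4 calls were lost when only EtOH_Rosi and 4OHT_Rosi were fitted, and without EtOH_Rosi 2, EtOH_Rosi 3, 4OHT_Rosi 2 or 4OHT_Rosi 3 only 1 was called. Leaving out EtOH_Rosi 1 ended the calls of Cox4i2 and Cox7a2l, and 4OHT_Rosi 1 that of Cox6a2. Without 4OHT_Rosi 3, the array that stood apart, that gene was Cox6a2, at −0.50 (adjusted p = 0.00232).

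**Figure D5:**
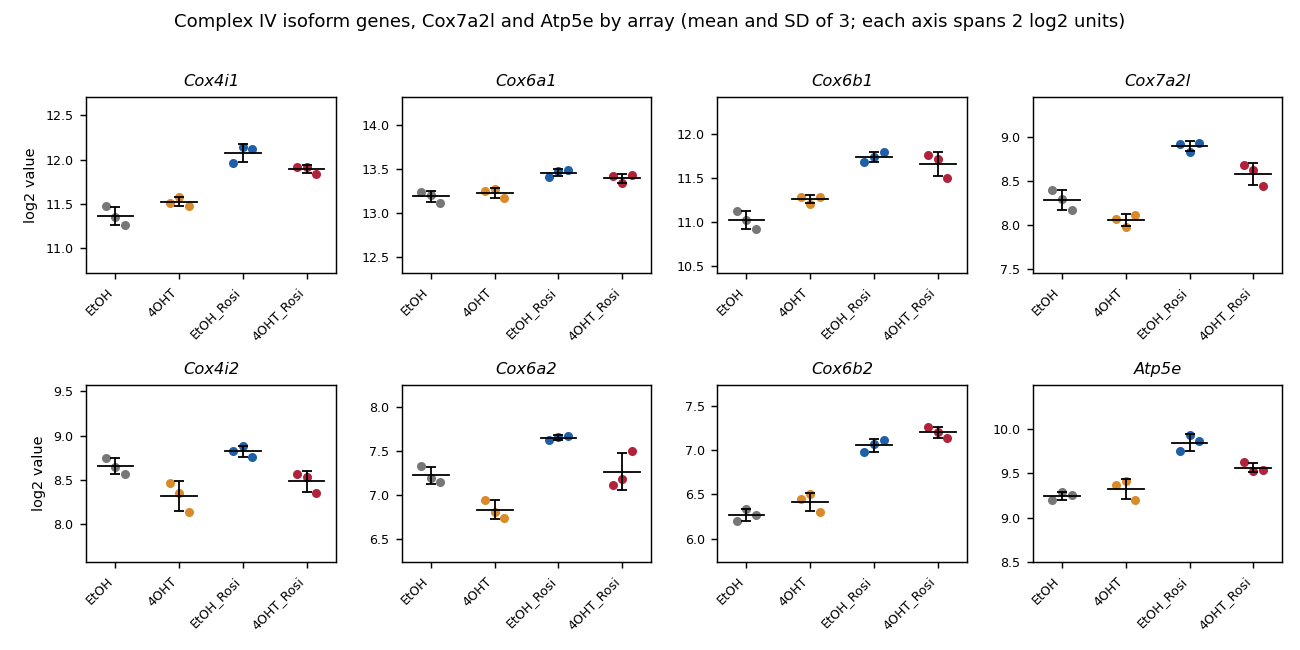
Log2 value (vertical axis, each spanning 2 log2 units) on each of the 12 arrays for Cox4i1, Cox6a1 and Cox6b1 above their isoforms Cox4i2, Cox6a2 and Cox6b2, with Cox7a2l and Atp5e at the right; mean and SD of 3 per group. Cox4i2 and Cox6a2 are lower after 4OHT both without and with rosiglitazone, and Cox6b2 is higher with rosiglitazone in both.

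The tissue-restricted isoforms differed among themselves in their response to rosiglitazone. Cox6b2, the testis isoform of subunit VIb, read 6.20, 6.33 and 6.27 in EtOH, 6.45, 6.50 and 6.30 in 4OHT, 6.98, 7.07 and 7.12 in EtOH_Rosi, and 7.26, 7.21 and 7.14 in 4OHT_Rosi. It rose by 0.79 ± 0.07 after ethanol (adjusted p = 1.29e-06) and by 0.79 ± 0.07 after 4OHT (adjusted p = 2.11e-06). Cox6b1, the ubiquitous form, rose by 0.71 ± 0.08 and 0.39 ± 0.08. Cox6a2 rose by 0.43 ± 0.09 in both. The testis isoforms Cox7b2 and Cox8c were not called, with means between 3.71 and 3.76 and between 4.97 and 5.04 over the groups.

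Cox8b and Cox7a1, brown-fat-enriched isoforms left out of the choice, differed by more. Cox8b read 6.57, 6.30 and 6.35 in EtOH, 9.46, 9.57 and 10.04 in EtOH_Rosi and 8.45, 8.55 and 8.09 in 4OHT_Rosi. It rose by 3.28 ± 0.14 with rosiglitazone after ethanol, fell by 1.33 ± 0.14 with 4OHT in rosiglitazone, and had a called interaction of −1.30 ± 0.20 (adjusted p = 0.0123). Cox7a1 rose by 1.89 ± 0.12 and fell by 0.79 ± 0.12 in the same comparisons, and its interaction was −0.63 ± 0.17 (adjusted p = 0.109). Ucp1 rose by 2.14 ± 0.14 and fell by 1.58 ± 0.14. No subunit gene of the 46 had a 4OHT difference beyond 0.39 in either direction.

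Other genes of the respiratory apparatus were read beside the 46. Complex I subunits had 31 of 33 higher with rosiglitazone after ethanol (median 0.58), and mitochondrial ribosomal proteins had 61 of 71 (median 0.39). Of 32 measured assembly factors of complexes II to V, 31 rose (median 0.51), including the heme synthesis enzyme Cox10 (0.89 ± 0.06) and the complex III assembly factor Uqcc1 (0.90 ± 0.06). The 6 subunits of complexes III to V encoded by mitochondrial DNA were not analysed here. Of 11 genes for other mitochondrial proteins, 10 rose (median 0.35), among them citrate synthase, Cs (0.50 ± 0.06), and the import pore Tomm40 (0.69 ± 0.06). After 4OHT, 26 of 33, 55 of 71, 26 of 32 and 9 of 11 of these lists rose, and none of their genes fell.

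Most genes of these lists also had a smaller rosiglitazone difference after 4OHT. The interaction was above 0 in 2 of 33 complex I genes (median −0.19), 7 of 32 assembly factors (median −0.155) and 14 of 71 mitochondrial ribosomal genes (median −0.09). In the 11 genes for other mitochondrial proteins it was above 0 in 1 (median −0.05). An unadjusted interaction p under 0.05 (limma) was found in 16 of the 33 complex I genes and 10 of the 32 assembly factors. It was found in 9 of the 71 mitochondrial ribosomal genes and 0 of the 11 other genes, beside 14% of all genes. Only 1 gene of these lists, in complex I, had a called interaction, and it was negative. The median 4OHT difference of the complex I genes was 0.08 without rosiglitazone and −0.10 with it.

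Cytochrome c (Cycs), the carrier between complexes III and IV, rose by 0.72 ± 0.06 after ethanol and 0.52 ± 0.06 after 4OHT. Atpif1, the inhibitor of ATP synthase, went the other way and fell by 0.38 ± 0.05 (adjusted p = 0.000107) and 0.18 ± 0.05 (adjusted p = 0.0310). Of 15 regulators of respiratory gene transcription, 9 rose and 1 fell after ethanol. The coactivators Ppargc1a and Ppargc1b rose by 1.73 ± 0.13 and 1.72 ± 0.09, and Esrra, Gabpa and Tfam by 0.47, 0.48 and 0.43. Nrf1 differed by 0.00 ± 0.07, and Pprc1 fell by 0.44 ± 0.08. With 4OHT in rosiglitazone, Tfb2m, a mitochondrial transcription factor, fell by 0.42 ± 0.09 and Pprc1 rose by 0.30 ± 0.08, with no other call in this list of 15.

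Markers of other cells moved in the rosiglitazone comparison too. After ethanol, 4 of 5 preadipocyte or fibroblast markers fell (median −1.20), as did 4 of 4 smooth muscle (median −1.04), 4 of 4 endothelial (median −0.74) and 5 of 6 macrophage markers (median −0.52). Their mean level per array ran from 10.3 to 10.4 in EtOH and from 9.27 to 9.52 in EtOH_Rosi for the preadipocyte list, from 9.96 to 10.2 and from 8.85 to 9.28 for smooth muscle, from 9.64 to 9.73 and from 8.87 to 9.0 for endothelium, and from 8.98 to 9.29 and from 8.50 to 8.64 for macrophages. None of these 4 lists was at the floor of the array in any group. Of 7 adipocyte markers, 3 rose and 2 fell (Lep and Retn), and their mean ran from 12.1 to 12.2 in EtOH and from 11.7 to 11.8 in EtOH_Rosi. The median difference of the 7 was 0.08, with 4 above 0, and Lep fell by 3.57. With 4OHT in rosiglitazone, the smooth muscle markers Myh11 and Cnn1, 2 of 4, rose by 0.53 and 0.91, and the mean of the 4 ran from 9.55 to 9.99 in 4OHT_Rosi. Cnn1 read 7.51, 7.53 and 6.62 in EtOH_Rosi and 7.93, 7.76 and 8.70 in 4OHT_Rosi. Its highest value was on 4OHT_Rosi 3, the array that stood apart. In the same comparison the fibroblast marker Pdgfra and the macrophage marker Lyz2 fell by 0.39 and 0.20, and the endothelial marker Kdr rose by 0.49. Each was the 1 call of its list, and the lists were mixed. Above 0 were 3 of 5 preadipocyte or fibroblast, 3 of 6 macrophage and 2 of 4 endothelial markers. With 4OHT and no rosiglitazone, Pdgfra, Itgam and Lyz2 fell by 0.53, 0.63 and 0.24, Itgam being a further macrophage marker, and Myh11 rose by 0.43. The median was −0.23 over the preadipocyte or fibroblast list and −0.25 over the macrophage list. It was −0.07 over the smooth muscle list, where 1 of 4 was above 0. No adipocyte marker was called in either 4OHT comparison. The part of these shifts in the subunit results was not tested.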

How the data were processed

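The authors deposited log2 values of 41345 probe sets on 12 arrays. Per the submitters' processing notes, Affymetrix Expression Console was used (version, summary method, normalization and genome build not given in the sources used here). Groups followed the sample titles. GEO's platform annotation gave 23521 probe sets 1 symbol, and 23328 of them matched RefSeq by Entrez ID. The brightest probe set per gene, by mean over 12 arrays, left 22180 genes, with no filter on dim genes. A mean per group was fitted with limma 3.58.1 in R 4.3.3 (eBayes, 8 residual and 5.07 prior degrees of freedom), and genes with a Benjamini-Hochberg adjusted p under 0.05 over all genes of a contrast were called. The fit was tested on simulated data.

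The members, gene lists and naming rule were chosen with earlier results of these data known. Named were the 6 largest rises and falls among called members per contrast, each complex's largest and smallest rosiglitazone difference, tissue-restricted isoforms with their counterparts, the 2 smallest interaction p, and up to 3 smallest-p genes per list. Other members are named to account for each complex. The 20 alternatives were a replicate block, other fits, normalizations, filters and probe set summaries, and leaving out each array. Figures used matplotlib 3.10.9 in Python 3.11.15.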

Additional observations from a re-analysis of the deposited data

Results flagged for a closer look

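Differences between the 4OHT effects were called for genes beside the subunits. The 4OHT effect on Cox8b differed between cells with and without rosiglitazone by −1.30 (adjusted p = 0.0123, limma interaction), lower with rosiglitazone. For Kdr, an endothelial receptor gene, the same difference was 0.61, higher with rosiglitazone.

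Probe sets that name a subunit gene together with a second gene were outside the comparisons. The set 17260023, shared by Uqcr10 and Gm6293, read 8.19, 7.92 and 8.15 in EtOH and 9.12, 9.07 and 9.25 in EtOH_Rosi, a difference of 1.06 ± 0.08 (adjusted p = 4.03e-06). The set 17293863 (Uqcrb and Gm10767) differed by 0.44 ± 0.14 (adjusted p = 0.0530), and the sets 17316436 and 17547698 (Cox6c and Gm6265) by 0.21 ± 0.06 (adjusted p = 0.0371) and 0.24 ± 0.05 (adjusted p = 0.00542). In each, all EtOH_Rosi arrays were above all EtOH arrays, and which gene gave the signal cannot be told apart.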

How the results depend on the processing

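Under the 20 alternatives every median over the 46 genes moved by less than a set limit. The limit was the SD of the per-array medians within a group, averaged over the 4 groups. It is close in size to the 4OHT medians of 0.08 and −0.08, which could shrink toward 0 and still stay within it. Without rosiglitazone, the 2 genes higher after 4OHT became 0 with the replicate block or quantile normalization and 5 with an intensity trend or array weights, and 0 to 2 without each array in turn. The 1 gene lower became 2 with the trend, quantile normalization, the filter at the 25th percentile or the mean of all probe sets, 3 with array weights, 0 with median centring, and 0 to 2 without each array, so that lower calls outnumbered higher ones with the block, with quantile normalization and without 4OHT 1, 4OHT_Rosi 2 or EtOH_Rosi 2. With rosiglitazone, the 4 genes lower became 0 when only the 2 groups compared were fitted and 7 with the trend, and 1 to 5 without each array. The interaction, with 0 genes, gave 6 lower with the trend, 2 with array weights, and 0 to 1 without each array (Cox5a without 4OHT_Rosi 1). The causes were not tested. Deviations of arrays with the same replicate number correlated at −0.24 to 0.079, so no pairing of the samples was seen. Whether such arrays shared a culture or batch is not settled by these correlations. The block left 1 call without rosiglitazone, Cox4i2, and the same 4 with it. Signal limits what can be seen for the 6 genes below the median level, and compression for the brightest.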
